A study of Mus musculus with 2 samples.

Results

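Cyclin-dependent kinase (CDK) inhibitors and growth-arrest genes were followed from cycling pituitary stem cells (SCs), through differentiating cells, to endocrine cells. The 10 genes were *Cdkn1a*, *Cdkn1b*, *Cdkn1c*, *Cdkn2c*, *Gadd45a*, *Gadd45b*, *Gadd45g*, *Btg1*, *Btg2* and *Trp53*, taken by their symbols from the 31055 features of both count tables. Each of the 10 symbols matched 1 feature, and all 10 passed the minimum mean level used for the comparisons. The cells were the SOX9iresGFP+ fraction of Sox9iresGFP/+ mouse pituitaries at postnatal day 3, as 1 library from 3 male and 1 library from 3 female pituitaries. Every animal carried the reporter, which marks SCs and, because GFP outlasts SOX9, their recent progeny. No other genotype, treatment or age was measured, so the order described is one of states present on the same day, not of cells followed in time.

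An SC that leaves the cycle must silence CDKs, the kinases that drive DNA replication and mitosis. Inhibitors of the CIP/KIP family (*Cdkn1a*, *Cdkn1b* and *Cdkn1c*, for p21, p27 and p57) bind cyclin-CDK complexes broadly, whereas those of the INK4 family, such as *Cdkn2c* (p18), bind CDK4 and CDK6. GADD45 proteins are small stress and differentiation response proteins, BTG1 and BTG2 are antiproliferative proteins that recruit the deadenylase complex, and *Trp53* encodes p53, the transcription factor that activates *Cdkn1a* after DNA damage. In the mouse pituitary, p57 is known for cell cycle exit of progenitors, p27 for restraining later growth and p18 for limiting tumours.

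Classes were ranges of raw counts of unique molecular identifiers (UMIs) of other genes, and no gate counted a gene of the 10. The gates were chosen with earlier results of these data known. The class in which a gene is highest is therefore a description and not independent of that choice. SCs had *Sox2* without *Lef1* and were mitotic, replicating or non-cycling by 8 mitosis and 8 replication genes, and "cycling" joins the first 2 of these. Intermediate cells had *Sox2* but met neither the SC gate nor any later one. Early differentiating cells had at least 3 UMIs of *Dll1*, *Scx* and *Mycl*, and more of these than of the late markers. Late differentiating cells had at least 3 UMIs of *Smoc2*, *Pou3f4*, *C1ql2* and *Shh*. Gonadotroph precursors had *Neurod1* at 3 UMIs or more, and gonadotrophs had *Cga* with *Gnrhr*, *Nr5a1*, *Fshb* or *Lhb*. POU1F1 precursors had *Pou1f1* at 2 UMIs or more with little hormone, that is under 20 UMIs of *Prl*, under 100 of *Gh* and under 20 of *Tshb*. Hormone-positive POU1F1 cells reached any of these limits, and the remaining classes were POMC cells and mesenchymal cells. A level is the sum of a gene's UMIs in a class of 1 library, divided by all UMIs of the class and given as CPM, followed by its exact Poisson 95% interval. With 1 library per sex no test was possible, intervals cover counting error only, and a difference between the sexes cannot be told apart from one between libraries. The 3′ counts rank classes for a gene, and levels of different genes were not compared.

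After filters and a minimum of 3000 UMIs, 7238 male cells (median 11888.5 UMIs) and 5576 female cells (median 9909 UMIs) remained. The minimum removed 3172 male cells (30.5%) and 135 female cells (2.36%), and the libraries shared 19 cell barcodes. Classes held 106 to 1960 cells, apart from the 23 gonadotrophs and 38 hormone-positive POU1F1 cells of the female library, whose values rest on few cells. In a check of the labels, which name all cells stem cells, *Sox9* itself was 120.2 CPM in non-cycling male SCs and 21.5 CPM in male gonadotrophs. Gates are cuts through a range: 358 male and 346 female cells had 2 early or late marker UMIs, just under the gate, 194 and 169 had 3, and 1633 and 1219 passed it. Cells that met 2 lineage gates were left out, and no doublet caller was applied to the main values. Scrublet, run as an alternative with the share of doublets that the cell number predicts, marked 70 of 1096 early and 39 of 537 late male cells, and 56 of 792 and 22 of 427 female cells. The male endocrine classes were marked more often, with 59 of 506 gonadotroph precursors, 35 of 322 gonadotrophs and 56 of 483 POU1F1 precursors, against 3 of 110, 1 of 23 and 18 of 197 female cells.

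The 10 genes did not appear together. *Cdkn2c* was highest in mitotic SCs, *Cdkn1a* and *Trp53* in early differentiating cells, *Gadd45g* in late differentiating cells, *Gadd45a* in gonadotroph precursors and *Cdkn1b* in gonadotrophs. *Gadd45b* was highest in POU1F1 precursors and *Btg1* in mesenchymal cells. For these 8 genes the highest class was the same in both libraries. *Cdkn1c* was highest in male gonadotrophs and in female POU1F1 precursors, and *Btg2* in male late differentiating cells and in female POU1F1 precursors, with intervals overlapping the next class in both.

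**Figure D1:**
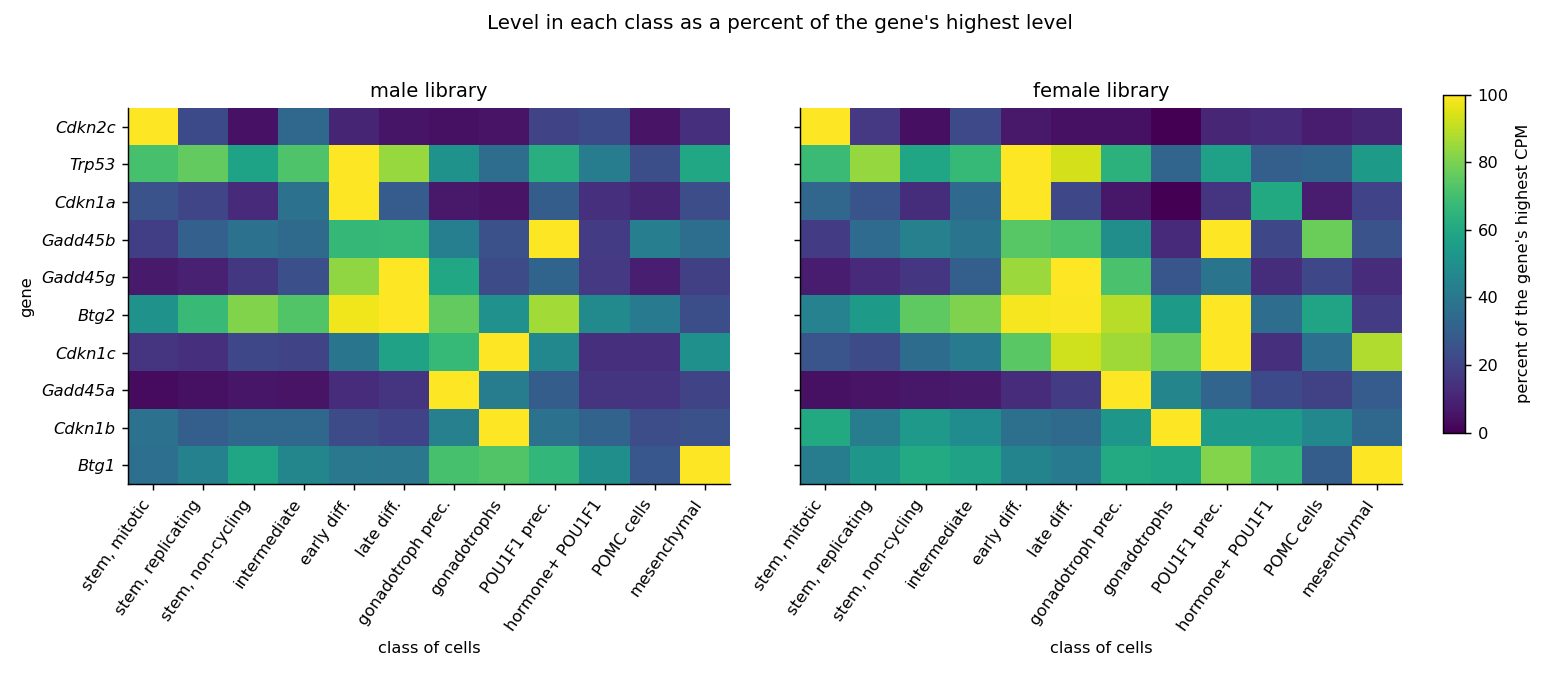
Level of the 10 genes (rows) in the 12 classes (columns) of the male and the female library, coloured as a percent of the gene's highest CPM in that library. Bright cells move from mitotic SCs (*Cdkn2c*) through early and late differentiating cells (*Cdkn1a*, *Trp53*, *Gadd45g*) to gonadotroph precursors (*Gadd45a*) and gonadotrophs (*Cdkn1b*), with the same highest class in both libraries for 8 of 10 genes.

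Between cycling and non-cycling SCs, *Cdkn2c* was the only gene of the 10 that differed at least 2-fold in both libraries (5 CPM added to each level), and it was lower. Over the 8781 features tested, 3.95% were lower by this rule and 0.137% higher. *Cdkn2c* stood at 104.1 CPM (97.8 to 110.8) in mitotic male SCs and 95.1 CPM (87.5 to 103.3) in mitotic female SCs. In non-cycling SCs it was 5.19 CPM (4.04 to 6.57) and 3.92 CPM (3.04 to 4.96). The inhibitor was also low in differentiating cells, at 10.97 CPM (early) and 5.87 CPM (late) in males and 6.42 and 4.42 CPM in females. After each cell was thinned to 5000 UMIs, 38.0% of mitotic and 2.01% of non-cycling male SCs had a *Cdkn2c* UMI, against 32.1% and 1.85% of female SCs. Without thinning, which leaves mitotic SCs at a median of 16436.5 and 13766.5 UMIs and non-cycling SCs at 8806 and 8383.5, these shares were 66.5% and 4.62% for males and 62.5% and 3.42% for females.

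Within the cycling SCs *Cdkn2c* was also uneven. Replicating SCs had 23.2 CPM (17.4 to 30.5) and 15.9 CPM (9.99 to 24.1), a ratio to mitotic SCs of 0.223 and 0.167. Intermediate cells had the next level of *Cdkn2c* after mitotic SCs in both libraries, at 34.8 CPM (30.6 to 39.5) and 21.0 CPM (17.2 to 25.4). The female interval overlapped that of replicating SCs. Intermediate cells mixed cycle states, with 103 mitotic and 21 replicating of 435 male cells and 46 and 11 of 436 female cells. The part of this mixture in their level was not tested. The 3 genes with the most similar profile over the 24 class levels were *Hmgb2* (Pearson's r 0.933), *Sgo1* (0.931) and *Kif23* (0.931), the last 2 being genes of chromosome cohesion and cytokinesis. This likeness, like those given for the other genes, was ranked among 6163 genes on log2(CPM + 5) and is a description, since the 24 points share 2 libraries.

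Cells that cycled while carrying differentiation markers had more *Cdkn2c* than non-cycling cells of the same stages. Cycling early differentiating cells (84 male and 32 female) had 53.6 and 57.3 CPM, and cycling late differentiating cells (18 and 9) had 70.1 and 45.6 CPM. Cycling SCs had 88.9 CPM (83.6 to 94.4) and 80.3 CPM (74.0 to 87.0). The male early level (45.6 to 62.6) was below that of cycling SCs, and the other intervals overlapped. The non-cycling cells of the same stages had 1.65 and 1.87 CPM (early) and 1.88 and 2.33 CPM (late). Cycling early cells had a median of 31256.5 and 23569 UMIs against 12529.5 and 11276 in non-cycling early cells. Late medians were 24775.5 and 31714 against 13321 and 12706 UMIs. The part of doublets in the values of cycling cells was not tested. The gates were fixed raw UMI counts, so a deeper cell could pass with fewer markers relative to its total. For every gene, cycling and non-cycling cells of these stages were therefore not matched in relative marker level.

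**Figure D2:**
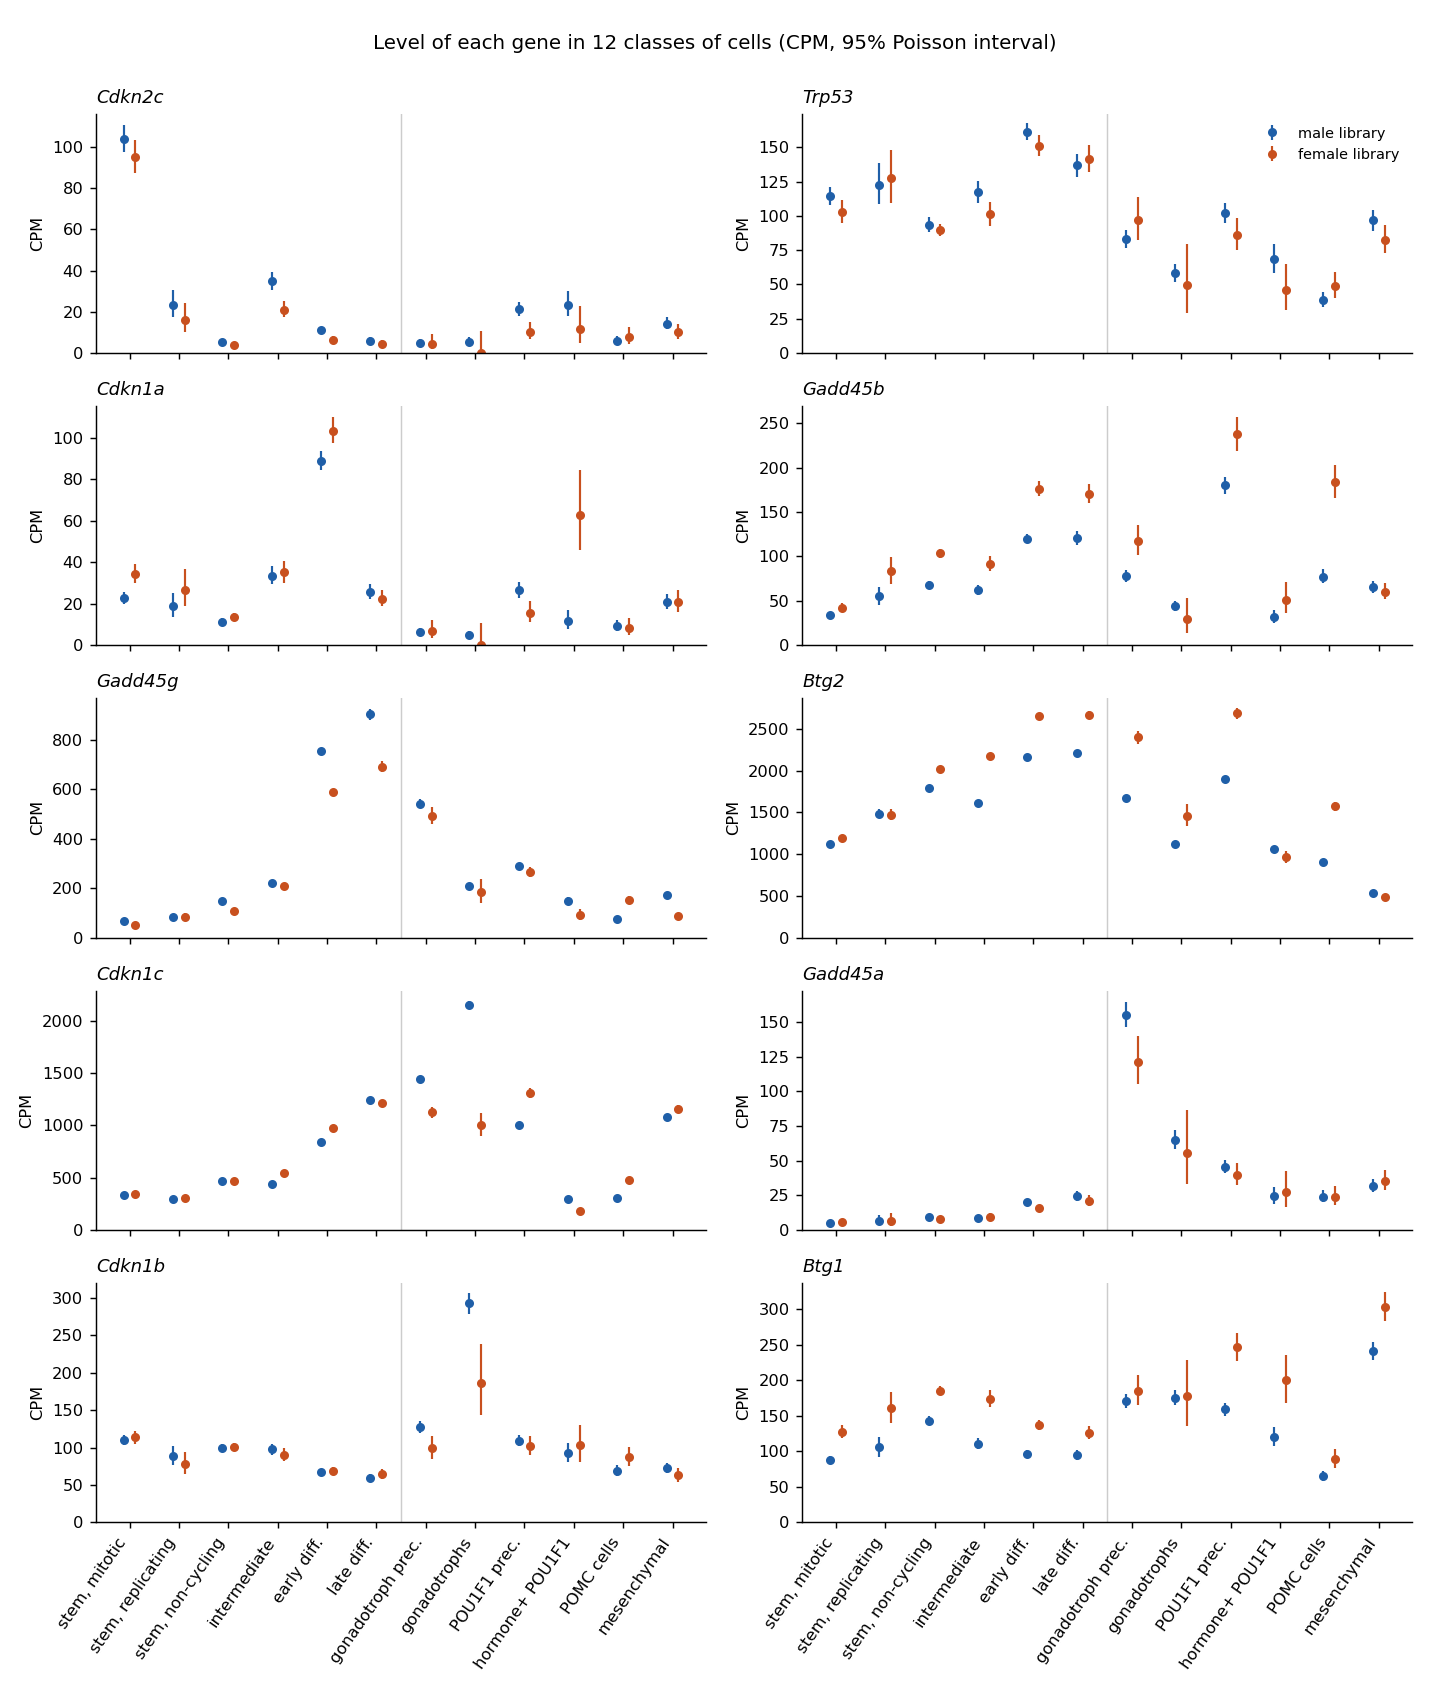
Level of each gene (CPM, vertical axis from 0, a scale of its own in each panel) in the 12 classes, from SCs on the left to endocrine and mesenchymal cells right of the grey line. Points are the male (blue) and female (orange) library and bars are exact Poisson 95% intervals. *Cdkn2c* falls away from 104.1 and 95.1 CPM in mitotic SCs, *Cdkn1a* peaks at 89.0 and 103.6 CPM in early differentiating cells, and *Gadd45a* at 155.4 and 121.6 CPM in gonadotroph precursors.

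Early differentiating cells differed from cycling SCs in several of the genes: 4 of the 10 were at least 2-fold higher in both libraries (*Cdkn1a*, *Cdkn1c*, *Gadd45b* and *Gadd45g*) and 1 was lower (*Cdkn2c*). Of all features tested, 2.73% were higher and 5.4% lower. Just outside the limit were *Gadd45a*, with a log2 fold of 1.31 (male) and 0.95 (female), and *Btg2*, with 0.85 and 1.09. Of those inside, *Cdkn1c* in the male library lay nearest to it at 1.35.

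*Cdkn1a*, the p21 gene, was highest in the early stage and lower on both sides of it. The gene was 22.0 CPM (19.4 to 24.8) in cycling and 11.1 CPM (9.34 to 12.99) in non-cycling male SCs, then 89.0 CPM (84.5 to 93.6) in early and 25.9 CPM (22.5 to 29.7) in late differentiating cells. Intermediate male cells had 33.5 CPM (29.3 to 38.1). The female levels of cycling, non-cycling, early and late cells were 33.0 (28.9 to 37.4), 13.7 (12.02 to 15.6), 103.6 (97.4 to 110.0) and 22.4 CPM (18.8 to 26.6), with 35.2 CPM (30.2 to 40.8) in intermediate cells. Early differentiating cells thus lay 4.05-fold (male) and 3.14-fold (female) above cycling SCs and 8.05-fold and 7.56-fold above resting ones. A *Cdkn1a* UMI was found in 27.6% (25.0 to 30.4, exact Clopper-Pearson 95% interval) of thinned early male cells and 30.9% (27.7 to 34.2) of early female cells. The lowest shares were 0.823% of male gonadotroph precursors and 0 of 23 female gonadotrophs, for which the upper bound is 14.8%. Without thinning the early shares were 42.6% and 43.7%.

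The cell cycle state went with *Cdkn1a* differently in SCs and in early cells. Resting SCs had 0.503 (male) and 0.416 (female) of the level in cycling SCs. In early cells the order was the other way, with 103.8 and 108.8 CPM in non-cycling cells and 37.2 and 54.95 CPM in cycling ones, a ratio of 2.79 and 1.98. Early cells of both states were not matched in depth or relative marker level, and the part of this in the ratio was not tested. In late cells the intervals of both states overlapped in both libraries.

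From early to late differentiating cells *Cdkn1a* was the only gene of the 10 past the 2-fold limit, and it was lower, beside 1.25% of all features lower and 0.421% higher. The late level was 0.291 (male) and 0.216 (female) of the early level. No gene of the 10 was higher.

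For *Cdkn1a*, the same order appeared on a finer scale. Cells with at least 5 early and late marker UMIs in all were put into 5 bins by the late markers' share. From the most early to the most late bin, *Cdkn1a* went through 130.5, 86.2, 42.5, 32.1 and 3.43 CPM in males, the last from 3 UMIs in 59 cells. The female levels were 137.4, 121.7, 48.4, 19.4 and 16.3 CPM, the last from 62 cells. *Trp53* was 172.2 and 115.4 CPM in the outer male bins and 150.8 and 126.7 CPM in the outer female bins, where the intervals overlapped. *Gadd45g* did not follow the order of the 2 classes here. It was highest in bin 2, at 972 CPM (male) and 723 CPM (female), with intervals overlapping those of bin 3. Its outer bins had overlapping intervals in both libraries, at 751 and 744 CPM in males and 608 and 652 CPM in females. Over the same bins *Cdkn1c* went from 769 to 1280.5 CPM in males, and was 1023 and 1121 CPM in the outer female bins, where the intervals overlapped. Female bins 3 and 4, at 1184 CPM (1149 to 1220) and 1169 CPM (1130 to 1208), lay above bin 1 (988 to 1060). Immediate-early genes, which respond to cell dissociation, moved along: their summed level was 12776.5 and 12724.9 CPM in the first and 8026.7 and 9934.2 CPM in the last bin, and their part in these changes was not tested.

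**Figure D3:**
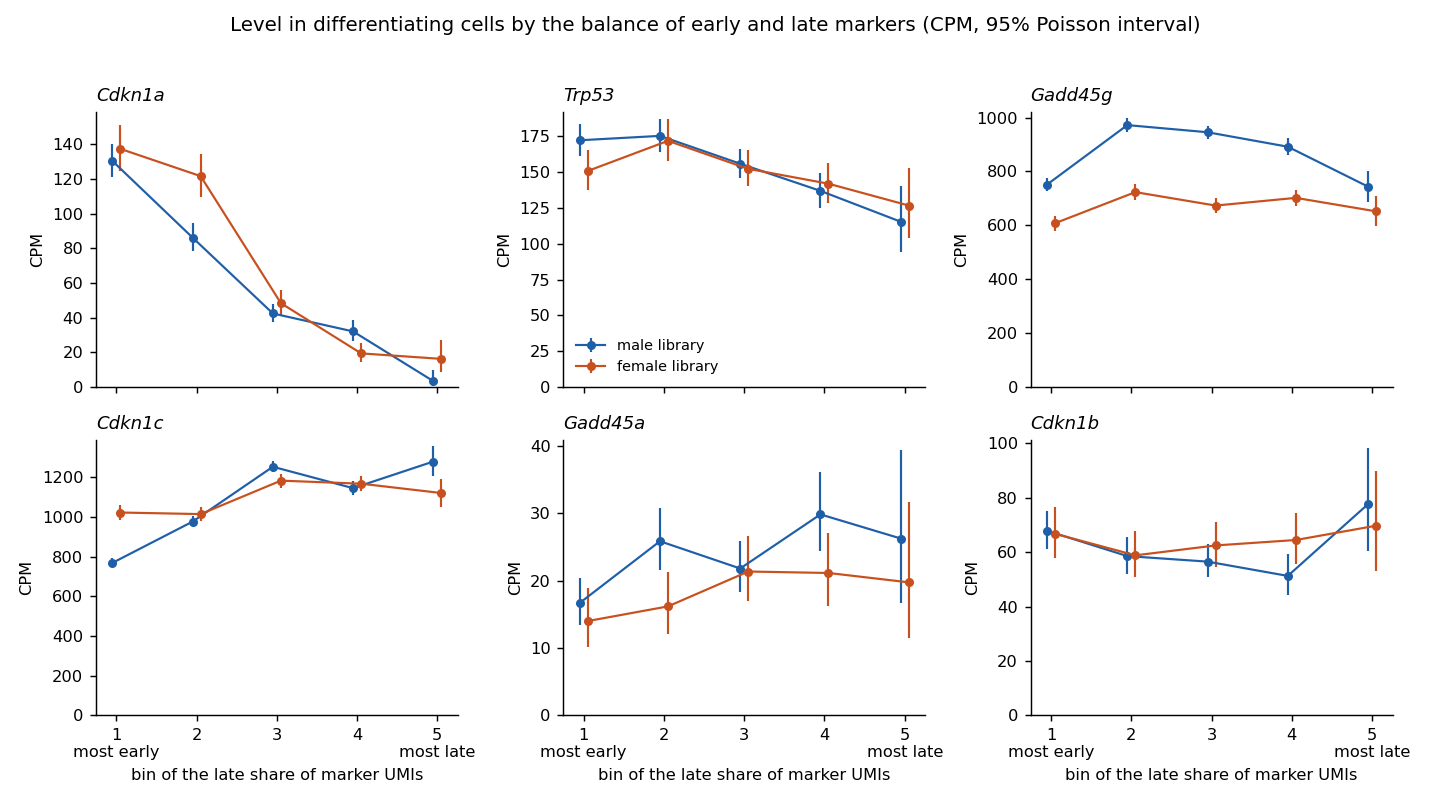
Level of 6 genes (CPM, vertical axis from 0) in differentiating cells of the male (blue) and female (orange) library, in 5 bins from cells with mostly early to cells with mostly late marker UMIs, with exact Poisson 95% intervals. *Cdkn1a* goes from 130.5 and 137.4 CPM to 3.43 and 16.3 CPM, whereas the outer bins of *Cdkn1b* and *Gadd45a* have overlapping intervals. In males, bin 4 had separate intervals from bin 1 for both, lower for *Cdkn1b* (51.3 against 67.9 CPM) and higher for *Gadd45a* (29.9 against 16.7 CPM).

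The sequence before the *Cdkn1a* start is shown because the gene and *Trp53* shared their highest class. RefSeq (GRCm38.p6) lists 9 of the 10 genes with a promoter, all but *Cdkn1c*, in 11 windows, with a second start for *Cdkn1a* and for *Cdkn2c*. In the 250 bases before each start, both strands were searched for the p53 response element by name (20 bases, at most 1 mismatch and none at the core C and G of each decamer), for the E-boxes CAGCTG and CAGATG and the palindromic E-box CACGTG, for the cell cycle homology element TTTGAA, and for the E2F element as TTTCCCGC or as TTTGGCGC. E-boxes read the same on both strands apart from CAGATG, and no motif searched contains another. Capitals mark the matches in 160 bases before the first *Cdkn1a* start (chr17:29090809-29090968, plus strand) and the *Gadd45g* start (chr13:51846505-51846664, plus strand), neither of which overlaps an exon of its gene.
Cdkn1a: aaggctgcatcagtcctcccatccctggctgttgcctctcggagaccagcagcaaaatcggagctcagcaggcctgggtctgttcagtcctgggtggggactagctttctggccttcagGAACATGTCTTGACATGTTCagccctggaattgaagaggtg
Gadd45g: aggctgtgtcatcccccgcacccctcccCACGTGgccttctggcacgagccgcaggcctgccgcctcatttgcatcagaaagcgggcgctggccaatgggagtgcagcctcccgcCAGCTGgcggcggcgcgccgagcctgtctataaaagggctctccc
The p53 element lies at positions -51 to -32 from the first *Cdkn1a* start, and 19 of 32851 promoter windows of the table (0.0578%) hold one. The window of the second, downstream *Cdkn1a* start (chr17:29093519-29093768, plus strand) held no match to any motif searched. *Gadd45g* has CACGTG at -142 to -137 (held by 6.02% of windows) and CAGCTG at -55 to -50 (13%), hexamers of the E-box type that basic helix-loop-helix factors bind. The only other match was CACGTG at -185 to -180 before *Gadd45b*. Windows with CAGATG made up 14.4%, those with the cell cycle homology element 16% and those with an E2F element 1.3% of the table, and none of the listed genes was among them. In mm10, *Cdkn1a* spans chr17:29090976-29100727 and *Gadd45g* spans chr13:51846678-51848468, both on the plus strand. A match is a description of letters and shows no binding.

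*Trp53* mRNA was 161.6 CPM (155.6 to 167.8) in early male and 151.3 CPM (143.9 to 159.0) in early female cells, whereas resting SCs had 93.5 CPM (88.4 to 98.8) and 89.7 CPM (85.3 to 94.3). Mitotic SCs had 114.4 and 103.0 CPM and replicating SCs 122.9 and 127.5 CPM. The female replicating interval (109.3 to 147.8) overlapped that of early cells. From cycling SCs to early cells the log2 fold was only 0.46 and 0.47. Late cells stood at 136.8 and 141.5 CPM, with overlapping intervals between both stages in females. Its nearest profiles were *C1qbp* (r 0.951), *Mrpl15* (0.946) and *Nhp2* (0.946), and those of *Cdkn1a* were *Pabpc4* (0.784), *Gnl3* (0.779) and *Ptpn11* (0.711). A list of p53 target genes was set beside *Cdkn1a*. Of 18 listed targets 14 were tested. Between cycling SCs and early differentiating cells 1 was 2-fold higher (beside 2.73% of all features) and 0 lower (beside 5.4%). That gene was *Trp53inp1*, whose product is a cofactor of p53, at 12.4 and 40.9 CPM (male) and 9.90 and 30.1 CPM (female), and it stayed at 58.7 and 42.8 CPM in late cells, where *Cdkn1a* was low again. The median log2 fold of the tested targets was 0.19 and 0.21, beside 0.01 and 0.02 over all features. *Mdm2*, the p53 ubiquitin ligase, was 26.2 and 31.9 CPM (male) and 24.4 and 32.3 CPM (female).

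Early cells with and without a *Cdkn1a* UMI were then compared within the class, a comparison chosen after its levels were seen. At 5000 UMIs per cell there were 298 with and 780 without among males, and 244 and 546 among females. None of the 18 p53 targets had separate intervals in either library, which at this depth shows only that no difference was detectable. *Cdkn1c* was lower in cells with *Cdkn1a*, at 856 against 1018 CPM (male) and 902 against 1029 CPM (female), with separate intervals in both. *Mki67* was 10.7 against 28.5 CPM in males and 10.7 against 14.3 CPM, with overlapping intervals, in females. *Gadd45a* was 29.5 against 13.3 CPM in males, whereas in females it was 14.8 against 14.7 CPM. *Trp53* (165.1 against 159.2 and 172.1 against 141.8 CPM) and *Gadd45g* (919 against 867 and 649 against 599 CPM) had overlapping intervals.

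*Gadd45g*, a growth-arrest gene switched on in many differentiating progenitors, had the highest ratio of early cells to cycling SCs among the 10 genes. *Gadd45g* was 69.2 CPM (64.6 to 74.1) in cycling and 145.8 CPM (139.4 to 152.4) in resting male SCs, 753 CPM (740 to 766) in early and 902 CPM (881 to 923) in late cells. Female cells had 57.8 (52.4 to 63.5), 108.7 (103.9 to 113.7), 587 (572 to 602) and 691 CPM (670 to 712). The step from cycling SCs to early cells was 10.9-fold and 10.2-fold. After thinning, 82.3% of early and 86.9% of late male cells had a UMI, and 75.1% and 84.0% of female ones, against 20.6% and 13.3% of cycling SCs.

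*Gadd45g* also separated cycling from non-cycling cells of one stage. Cycling early cells had 176.9 and 187.6 CPM, below the 906 and 636 CPM of non-cycling early cells, a ratio of 5.12 and 3.39. In late cells the ratio was 3.16 and 2.09, and in SCs 2.11 and 1.88. Cycling early and late cells were deeper than non-cycling ones here too, and the part of unmatched marker levels was not tested. Its nearest profiles were those of *Rtraf* (r 0.955), *Pex5l* (0.944) and *Pdzrn4* (0.9405).

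*Gadd45b* followed at a lower amplitude. It was 37.6 and 49.8 CPM in cycling SCs, 120.0 and 176.3 CPM in early and 120.3 and 170.7 CPM in late cells, with the highest levels in POU1F1 precursors (180.1 and 237.8 CPM). When only the cells of each class up to its median immediate-early share were kept, the *Gadd45b* level of POU1F1 precursors was 90.7 CPM in males and 204.4 CPM in females. The immediate-early sum was 12626 and 12428 CPM in cycling SCs, 16985 and 16282 CPM in resting SCs and 11497 and 12172 CPM in early cells, and its part in the *Gadd45b* and *Gadd45g* levels was not tested.

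**Figure D4:**
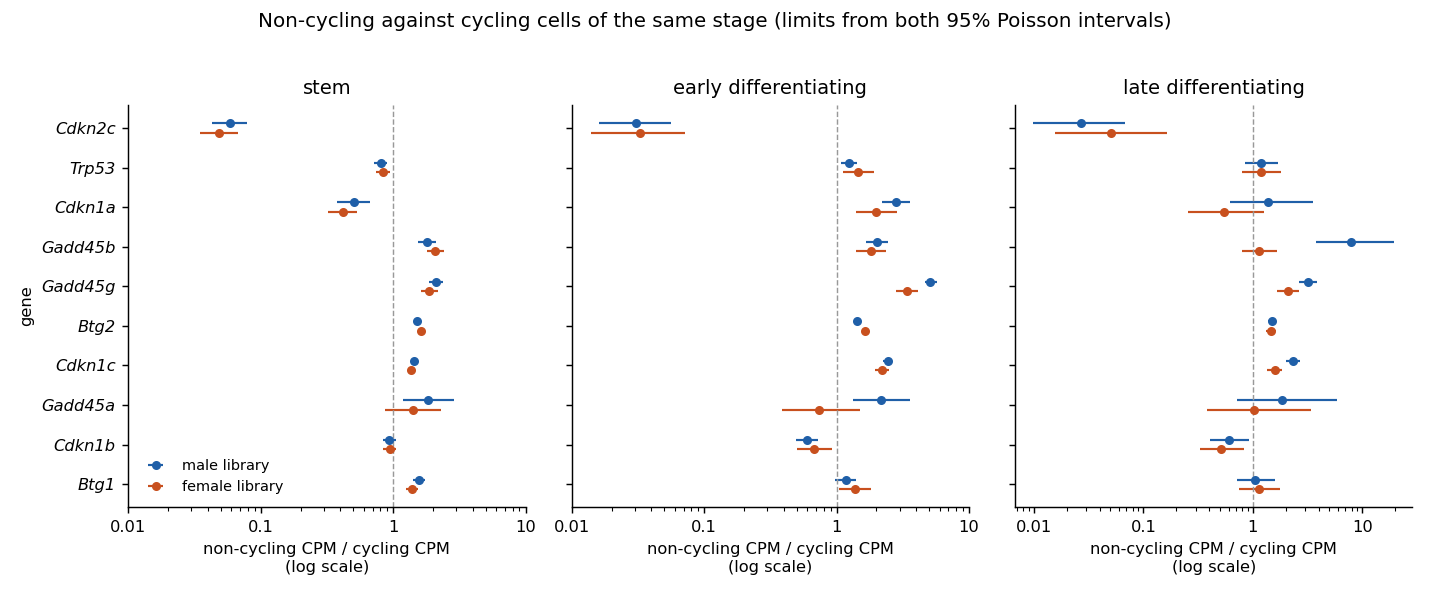
Level in non-cycling over cycling cells of the same stage (log axis, dashed line at 1) for each gene in SCs, early and late differentiating cells, with male (blue) and female (orange) libraries and limits made from both Poisson intervals. *Cdkn2c* lies far below 1 in all 3 stages and *Gadd45g* above 1, whereas *Cdkn1a* lies below 1 in SCs (0.503 and 0.416) and above 1 in early cells (2.79 and 1.98).

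The p57 gene *Cdkn1c* was higher in resting than in cycling SCs, higher again in early cells and higher still in late cells. It went from 325.0 CPM (314.9 to 335.4) in cycling SCs through 467 CPM in resting SCs and 838 CPM in early cells to 1240.2 CPM (1215.6 to 1265.1) in late cells of the male library. The female series was 339.0 (325.8 to 352.5), 464, 973 and 1213 CPM (1185 to 1242). Intermediate cells had 440.3 CPM (424.9 to 456.2) in males, with an interval overlapping that of resting SCs, and 540.9 CPM (520.7 to 561.7) in females. In contrast to *Cdkn1a*, *Cdkn1c* was high in non-cycling cells of each stage: the ratio of non-cycling to cycling cells was 1.44 and 1.37 in SCs, 2.44 and 2.20 in early and 2.33 and 1.58 in late cells. The gene *Gm44732* overlaps *Cdkn1c* on the other strand.

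Towards endocrine cells, *Cdkn1c* diverged by lineage. Male gonadotrophs had 2146 CPM (2108 to 2185) and male gonadotroph precursors 1441 CPM, both above late cells, whereas the 23 female gonadotrophs had 1004 CPM (900 to 1116), below the late level of 1213 CPM. Hormone-positive POU1F1 cells (298 and 179 CPM) and POMC cells (302 and 477 CPM) were lower than late cells in both libraries. POU1F1 precursors were at 1000.5 and 1310.0 CPM.

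The p27 gene *Cdkn1b* ran against this order. It was lower in early and late cells (67.1 and 58.9 CPM for males, 68.7 and 64.2 CPM for females) than in cycling SCs (105.9 and 107.0 CPM), with overlapping intervals between cycling and resting SCs. The lower level was that of non-cycling cells, at 57.9 and 66.1 CPM (early) and 56.7 and 60.5 CPM (late). Cycling early cells (97.1 and 98.0 CPM) and cycling late cells (93.5 and 117.3 CPM) had intervals overlapping those of cycling SCs. In gonadotrophs it stood at 292.7 CPM (278.6 to 307.3) and 186.7 CPM (143.8 to 238.5), with precursors at 126.9 and 99.1 CPM between late cells and gonadotrophs. A *Cdkn1b* UMI was present in 66.9% of thinned male and 78.3% (56.3 to 92.5) of female gonadotrophs, against 26.8% and 28.0% of late cells. Among the nearest profiles to that of *Cdkn1b* were *Ncoa7* (r 0.886) and *Pde6d* (0.850).

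*Gadd45a* peaked one class before *Cdkn1b*. The levels in cycling SCs (5.05 and 5.70 CPM) and late cells (24.2 and 20.9 CPM) gave way to 155.4 CPM (146.5 to 164.6) and 121.6 CPM (105.1 to 139.9) in gonadotroph precursors, 6.41-fold and 5.82-fold above late cells. Gonadotrophs had 65.0 CPM (58.4 to 72.1) and 55.4 CPM (33.4 to 86.6), 0.418 and 0.456 of the precursor level. The precursor signal was spread over many cells, with UMIs in 347 of 506 male and 66 of 110 female cells and at most 26 and 9 in a single cell. The genes most like it were *Dach1* (r 0.974), a transcriptional repressor, *Runx1t1* (0.935) and *Sat2* (0.929).

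Precursors were also split, after their levels were seen, into those with at least 3 late marker UMIs (185 male and 70 female) and those with fewer (321 and 40). *Gadd45g* was 762 and 625 CPM in the first and 385 and 264 CPM in the second group. *Cdkn1b* was 86.2 and 66.4 CPM in the first and 155.8 and 154.6 CPM in the second. *Gadd45a* (133.0 and 106.0, then 171.2 and 147.9 CPM) was high in both groups. So within *Neurod1*-positive cells too, fewer late markers went with less *Gadd45g* and more *Cdkn1b* in both libraries.

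From late cells to gonadotrophs, 2 of the 10 genes were at least 2-fold higher (*Cdkn1b* and *Gadd45a*) beside 4.3% of all features, and 4 were lower (*Cdkn1a*, *Gadd45b*, *Gadd45g* and *Trp53*) beside 1.7%. *Cdkn1a* was 4.71 CPM in male gonadotrophs and had 0 UMIs in the 23 female ones, where 3 UMIs would be 8.75 CPM, so that its female call rests on the 5 CPM added and was lost with 20 CPM added. *Gadd45g* fell to 208.1 and 183.8 CPM and *Trp53* to 57.9 and 49.6 CPM in gonadotrophs.

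POU1F1 precursors differed from late cells with separate intervals in both libraries for several genes. *Cdkn1b* (109.2 and 102.1 CPM, ratios of 1.85 and 1.59) and *Gadd45a* (45.6 and 39.4 CPM, ratios of 1.88 and 1.89) were above the late level. So were *Gadd45b*, *Btg1* (159.2 and 246.5 CPM) and *Cdkn2c* (21.2 and 10.3 CPM). *Gadd45g* (290.2 and 265.8 CPM, ratios of 0.322 and 0.385) and *Trp53* (101.9 and 86.4 CPM) were below it. The share of all features with separate intervals was not computed, so these genes cannot be read as particular in this. Whether these differences were unlike those in gonadotrophs was not tested. In hormone-positive POU1F1 cells, 0 of the 10 genes were higher than in late cells (4.95% of all features) and 4 were lower (*Cdkn1c*, *Gadd45b*, *Gadd45g* and *Btg2*, beside 3.31%). In POMC cells 0 were higher (3.72%) and 4 lower (*Cdkn1a*, *Cdkn1c*, *Gadd45g* and *Trp53*, beside 4.64%). The *Cdkn1a* call in POMC cells was near the limit, with log2 folds of -1.12 and -1.06, and was lost under 6 alternatives. The median log2 fold over all features was -0.02 and -0.18 in the first and -0.30 and -0.13 in the second comparison. *Cdkn2c* was higher in hormone-positive POU1F1 cells (23.3 and 11.4 CPM) than in late cells (5.87 and 4.42 CPM), with separate intervals only in the male library, and 19 of the 112 male cells were mitotic and 5 replicating, as were 8 and 1 of the 38 female cells. *Cdkn1a* was 11.9 CPM (7.95 to 17.0) in male and 62.9 CPM (45.7 to 84.5) in female hormone-positive POU1F1 cells, on opposite sides of the late levels. The gate also caught different cells in the libraries, with a median of 145 *Gh* UMIs per male and 3951.5 per female cell.

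The BTG genes differed from each other. *Btg2* was found in nearly all early and late cells (99.2% and 99.8% of thinned male cells), at 2162 and 2209.7 CPM (male) and 2658 and 2669 CPM (female). Cycling SCs had 1194 and 1247 CPM. Non-cycling cells were higher than cycling ones in all 3 stages of both libraries, with ratios of 1.43 to 1.65. *Btg1* was 90.9 and 133.3 CPM in cycling SCs, 143.0 and 185.2 CPM in resting SCs and 96.7 and 137.2 CPM in early cells. Its highest level was in mesenchymal cells (240.8 and 303.3 CPM), where *Btg2* was lowest (533 and 483 CPM). Among the nearest profiles were *Klf9* (r 0.843) for *Btg1*, *Zfhx3* (0.899) for *Btg2*, *Bckdha* (0.821) for *Gadd45b* and *Rbm4b* (0.896) for *Cdkn1c*.

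Lists of related genes were read beside these members. Of 4 other CDK inhibitors, *Cdkn2d* and *Cdkn3* were tested. Both were lower than in cycling SCs in non-cycling SCs (beside 3.95% of all features) and in early cells (beside 5.4%). *Cdkn2d* (p19 of the INK4 family) was 61.5 and 71.6 CPM in cycling SCs, 17.3 and 11.5 CPM in early cells, and back at 85.1 and 78.8 CPM in gonadotrophs. *Cdkn3*, a phosphatase of CDKs with a mitotic pattern, was 100.7 and 111.4 CPM in cycling and 1.35 and 0.979 CPM in resting SCs. *Cdkn2a* and *Cdkn2b* did not reach the minimum level, with *Cdkn2a* at 8.92 and 2.44 CPM in cycling SCs. Among 10 genes of cyclins, kinases and *Pcna*, the sliding clamp of replication, 9 were tested. In early cells 4 were lower than in cycling SCs (*Ccnd1*, *Ccne2*, *Ccna2* and *Pcna*), beside 5.4% of all features, and *Ccne2* also served in the replication gate. In non-cycling SCs 3 of these were lower too (*Ccne2*, *Ccna2* and *Pcna*, beside 3.95%). Most early cells were themselves non-cycling, 918 of 1096 male and 711 of 792 female cells. *Ccnd1* went from 451.9 and 375.5 CPM in cycling SCs to 190.3 and 122.9 CPM in early cells.

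Between the libraries, 3 genes were higher in 1 direction in most classes. *Btg1* was higher in the female library with separate intervals in 10 of 12 classes, *Btg2* in 9 and *Gadd45b* in 8, by male to female ratios of 0.420 to 0.942, and *Btg2* was higher in the male library in 1 class (mesenchymal cells, 1.10). *Cdkn1c* was higher in the female library in 5 classes and in the male library in 3, with a ratio of up to 2.14 in gonadotrophs. *Gadd45g* was higher in the male library in 6 classes (ratios of 1.28 to 1.96) and lower in 1. For *Trp53* the intervals overlapped in all 12 classes, and for *Gadd45a* in 11. Sex and library cannot be told apart in these differences. The share of all features with separate intervals between the libraries was not computed, so the counts cannot be read as particular to these genes.

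**Figure D5:**
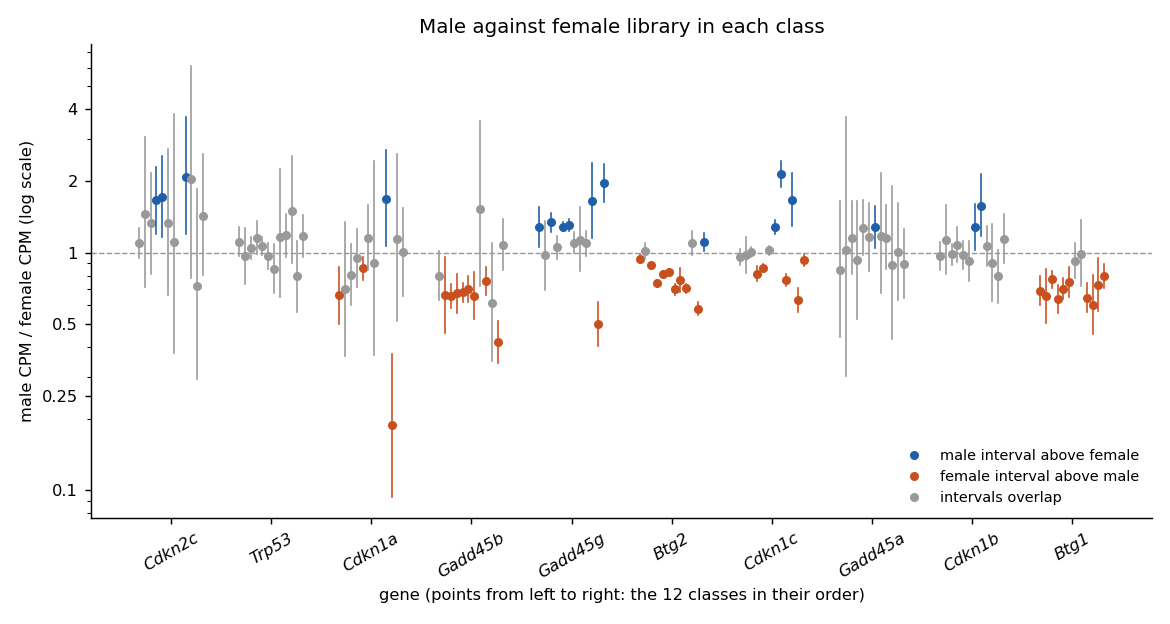
Male over female level of each gene (log axis, dashed line at 1), with 1 point per class in the order of the classes and limits made from both Poisson intervals. Coloured points have separate intervals (blue, male higher, orange, female higher), as for *Btg1* in 10 of 12 classes, and grey points overlap, as for *Trp53* in 12 of 12. Classes in which a library had no UMI are left out.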

How the data were processed

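Dissociated cells of Sox9iresGFP/+ pituitaries were sorted for GFP and run as 10x 3′ libraries, for which the labels name v2.0 and v3 and the methods v2 chemistry. The authors aligned reads with Cell Ranger 3.0.2 to mm10 with the eGFP sequence added, and deposited raw UMI counts per gene and barcode for 31055 features. As in their methods, cells with fewer than 50 genes or a mitochondrial share over 3 SD above the library mean were removed, leaving 10410 of 10569 male and 5711 of 5796 female cells, and cells under 3000 UMIs were then left out. No doublet caller was applied to the main values. Cells that met the gates of 2 lineages (207 male, 57 female) were left out. Counts were summed per class with numpy 2.4.6 and scipy 1.17.1 in Python 3.11.15. A step between classes was called at 2-fold or more in both libraries after adding 5 CPM, among features with a mean of at least 10 CPM. Limits of a ratio set the lower bound of one interval over the upper bound of the other. Shares used cells thinned to 5000 UMIs (seed 1). The 3 genes most like each gene were named by Pearson correlation among features of at least 20 CPM, without gate genes, and some of them are not reported here. The genes, lists and gates were chosen with earlier results of these data known. Scripts were tested on simulated data. Alternatives changed depth, doublets, gate heights, *Lef1*, immediate-early content, the total, the average and the CPM added.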

Additional observations from a re-analysis of the deposited data

Results flagged for a closer look

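Ratios to late differentiating cells lay on opposite sides of 1 between males and females, each beyond counting error, for 4 steps. The differences between the libraries were not tested, since each sex has 1 library. Hormone-positive POU1F1 cells had a *Cdkn1a* ratio of 0.458 (male) and 2.81 (female). The female value rests on 44 UMIs in 10 of 38 cells, 11 of them in 1 cell, and was 31.8 CPM in place of 62.9 CPM without the cells that Scrublet marked. The male value rests on 29 UMIs in 17 of 112 cells. *Cdkn1c* had a ratio of 1.73 and 0.827 in gonadotrophs, the latter from 344 UMIs in 23 cells. In gonadotroph precursors the *Cdkn1c* ratio was 1.16 and 0.927, and in POU1F1 precursors it was 0.807 and 1.08.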

How the results depend on the processing

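No paired analysis was possible because each sex has 1 library, and for the same reason no replicate could be left out. The 12 counts of genes called per step and the 8 genes with the same highest class in both libraries stayed within 1.5 times their value under the alternatives, apart from 6 values, all of them 1. With only cells low in immediate-early genes, 1 gene in place of 0 was higher in non-cycling than in cycling SCs (*Gadd45g*), 1 in place of 2 in gonadotrophs (without *Gadd45a*) and 1 in place of 0 in hormone-positive POU1F1 cells (*Cdkn2c*). *Cdkn2c* was likewise called there, 1 in place of 0, with mitochondrial, ribosomal protein and hormone genes left out of the total, and 1 in place of 0 with 1 CPM added, whereas adding 20 CPM left 1 gene in place of 2 higher in gonadotrophs (without *Gadd45a*). *Cdkn1a* was no longer called lower in POMC cells under 6 alternatives (no UMI minimum, doublet scores, *Lef1*, immediate-early content, mean over cells and 20 CPM added), and *Gadd45a* became called higher in early cells under 5. With only cells low in immediate-early genes, *Btg2* became called higher in early cells and lower in gonadotrophs and in POMC cells. *Trp53* became called lower in hormone-positive POU1F1 cells with doublet scores and with the mean over cells. Of 240 levels, 138 left their main interval with only cells low in immediate-early genes, 28 of them by over 1.5-fold, and 216 with the reduced total. The causes were not tested. *Btg2* changed its highest class most often, *Trp53* in the female library moved to late cells with a gate of 2 UMIs, and with the immediate-early limit *Gadd45g* moved to early cells in males and *Cdkn1c* to mesenchymal cells in females. *Cdkn2c*, *Cdkn1a*, *Cdkn1b*, *Gadd45a*, *Gadd45b* and *Btg1* kept their highest class under all 9 alternatives that changed cells or totals. Depth limits low levels: the exact Poisson upper limit for a gene with no UMI in female gonadotrophs, such as *Cdkn1a*, is 10.8 CPM.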

Other observations

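Of 4 other BTG and TOB genes, 3 were tested and 0 were called at any of the 6 steps, where 0.137% to 5.4% of all features were called in each direction. *Tob1*, which also represses proliferation, was 69.1 and 69.2 CPM in cycling SCs, 103.2 and 112.7 CPM in resting SCs and 105.3 and 118.7 CPM in early cells. *Tob2* was between 37.5 and 44.2 CPM from SCs to late cells in both libraries.

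Of 17 immediate-early genes 15 were tested. Between early and late differentiating cells 0 were higher (0.421% of all features) and 2 lower (1.25%), *Ier3* (12.8 to 3.06 CPM in the male, 11.5 to 3.06 CPM in the female library) and *Klf2* (89.9 to 34.2 and 99.9 to 27.0 CPM). Of 14 p53 targets tested between late and hormone-positive POU1F1 cells, 2 were higher in the latter (*Sesn1* and *Plk2*, beside 4.95% of all features) and 0 lower (3.31%), with *Sesn1* at 29.1 and 24.3 CPM against 6.89 and 5.95 CPM.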
